A study of Mus musculus with 3 samples.

Results

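The mitochondrial ribosome is built from proteins that are all encoded in the nucleus, made in the cytosol and imported. The genes described here are those whose symbol is Mrpl or Mrps followed by a number and at most 1 letter and that have at least 1 transcript annotated as protein_coding. They number 78 of 55536 annotated genes, 49 named Mrpl and 29 named Mrps, on 17 chromosomes. RNA was measured by total RNA sequencing after depletion of ribosomal RNA, in the cytosolic fraction of macrophages grown from bone marrow of C57BL/6J mice. All 3 libraries belong to 1 group: the cells received 100 ng/ml Lipid A, the lipopolysaccharide part that stimulates TLR4, for 12 h, had it washed out for 12 h and met 100 ng/ml again for 20 min. Age and sex were not collected, the libraries are labelled biological replicates 1, 2 and 3 but all carry 1 donor identifier. Errors and p-values therefore describe how far these libraries lie apart, which may in part be technical. With 1 group there is no untreated control, and every value is a level in restimulated cells.

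As background, the mitochondrial ribosome translates the few mRNAs of the mitochondrial genome, which encode core subunits of the respiratory chain and ATP synthase. Its 2 subunits hold many proteins with a bacterial counterpart, around ribosomal RNA that is shorter than in bacteria, and an added layer of proteins found only in mitochondria. Symbols do not always name the subunit: Mrps18a and Mrps30 sit in the large subunit, and Mrps36 is now assigned to the 2-oxoglutarate dehydrogenase complex. By structure the 78 genes comprise 51 of the large subunit, 26 of the small subunit and Mrps36. In the lists used here 48 of them are counted as having a bacterial counterpart, with Mrps18a, Mrps18b and Mrps18c among them, and 29 as specific to mitochondria.

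Expected counts on annotated genes totalled 32055937, 43616634 and 47864978 in replicates 1, 2 and 3, and a member had between 108.0 and 1798 of them in a library. Poisson counting error alone is 9.62% of the lowest of these counts and 2.36% of the highest. All 8 macrophage markers examined were at 1 TPM (a level per transcript length, scaled to a fixed sum in each library) or more in every library, with Lyz2 at 3323, 3002 and 3037 TPM. Of the neutrophil markers 3 of 8 reached 1 TPM in every library and their sum was 10.6 to 18.5 TPM. The same held for 1 of 7 B cell markers, summing to between 2.10 and 3.47 TPM, and for 0 of 7 T cell markers, summing to between 0.07 and 0.31 TPM, with Ly6g and Trac at 0 counts in every library. The 7SL genes Rn7s1 and Rn7s2 held 593114, 628510 and 555144 TPM, so TPM of every other gene depends on them, and the tests and deviations between libraries below use counts scaled by TMM unless TPM is named.

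Promoters of 3 members are shown first because they carry sequence motifs that recur in the family. They are the genes with the highest levels in each subunit, Mrps21 (small) and Mrpl52 (large), and Mrpl12, the stalk protein that contacts translation factors. Each is the stretch of 180 bases that ends at the RefSeq start (GRCm38.p6), written 5′ to 3′ on the gene's strand, with the match to a searched motif in capitals. They lie at chr3:95871515-95871694 on the minus strand, chr14:54426729-54426908 on the plus strand and chr11:120484457-120484636 on the plus strand, respectively.
Mrps21: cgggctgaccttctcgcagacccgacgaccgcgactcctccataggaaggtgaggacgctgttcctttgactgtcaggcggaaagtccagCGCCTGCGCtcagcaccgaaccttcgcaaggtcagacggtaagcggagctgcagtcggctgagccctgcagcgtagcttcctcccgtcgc
Mrpl52: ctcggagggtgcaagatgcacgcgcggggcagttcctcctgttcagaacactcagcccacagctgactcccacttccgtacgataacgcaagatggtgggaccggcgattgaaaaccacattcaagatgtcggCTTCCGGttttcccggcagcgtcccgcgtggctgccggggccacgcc
Mrpl12: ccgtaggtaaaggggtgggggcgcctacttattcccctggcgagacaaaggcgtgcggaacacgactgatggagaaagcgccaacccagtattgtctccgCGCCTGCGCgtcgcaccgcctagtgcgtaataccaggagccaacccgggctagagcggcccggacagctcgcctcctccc
The capitals mark the reverse complement of GCGCANGCG, the form bound by NRF1, in Mrps21 and Mrpl12, and that of CCGGAAG, the core bound by ETS factors such as GABP, in Mrpl52. In the windows searched next, Mrps21 also held 1 match to CCGGAAG and Mrpl52 held 2, so 1 match of each gene lies outside the stretch shown. RefSeq windows from 250 bases before to 50 after the start were matched by symbol for 69 of the 78 members, as 75 promoters, and searched on both strands. GCGCANGCG was in 21.3% of these promoters, in 14.7% of 9297 promoters of protein-coding genes at 1 TPM or more in every library and in 6.25% of all 32851 promoters in the table. CCGGAAG was in 34.7%, 20.2% and 8.86% of the same sets. AANATGGC, the core of the YY1 motif, was in 28.0%, 9.65% and 6.05%, and its longer form AAGATGGCG, which overlaps it, in 10.7%, 3.62% and 1.40%. Of the 24 matches to AANATGGC in members, 16 began after the RefSeq start and 11 had their ATG at an annotated start codon, in Mrpl27, Mrps18a, Mrps7 and 8 other genes. The GC-box core GGGCGG was less frequent in members than in expressed genes, at 52.0% against 63.6%, and TATAAA was in 6.67% against 6.81%. In 74 promoters of cytosolic ribosomal protein genes GCGCANGCG was in 12.2%, CCGGAAG in 35.1%, AANATGGC in 20.3% and AAGATGGCG in 6.76%. The share with CCGGAAG was thus about the same there as in members. None of GCGCANGCG, CCGGAAG and AANATGGC was found for 21 of the 69 matched members, nor for 56.4% of 7284 expressed coding genes. A match is a string of letters, and binding was not measured.

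Every member was detected: all 78 were at 1 TPM or more in every library, against 41.5% of the 21901 genes with a protein_coding transcript. The median level of the family was 12.4, 12.8 and 12.0 TPM in replicates 1, 2 and 3 (12.4 ± 0.38, SD, n = 3). The same median over the 9089 protein-coding genes at 1 TPM or more was 8.47 ± 0.54 TPM. Members lay in a narrow band, with 7.93 TPM at the first quartile and 17.1 TPM at the third, a ratio of 2.16. That ratio was 5.15 over the 9089 genes and 2.24 over the 82 cytosolic ribosomal protein genes. In bulk RNA fewer cells of a type and less RNA per cell cannot be told apart, so these are levels of the whole culture. In the whole family 42 genes reached 10 TPM in every library.

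**Figure D1:**
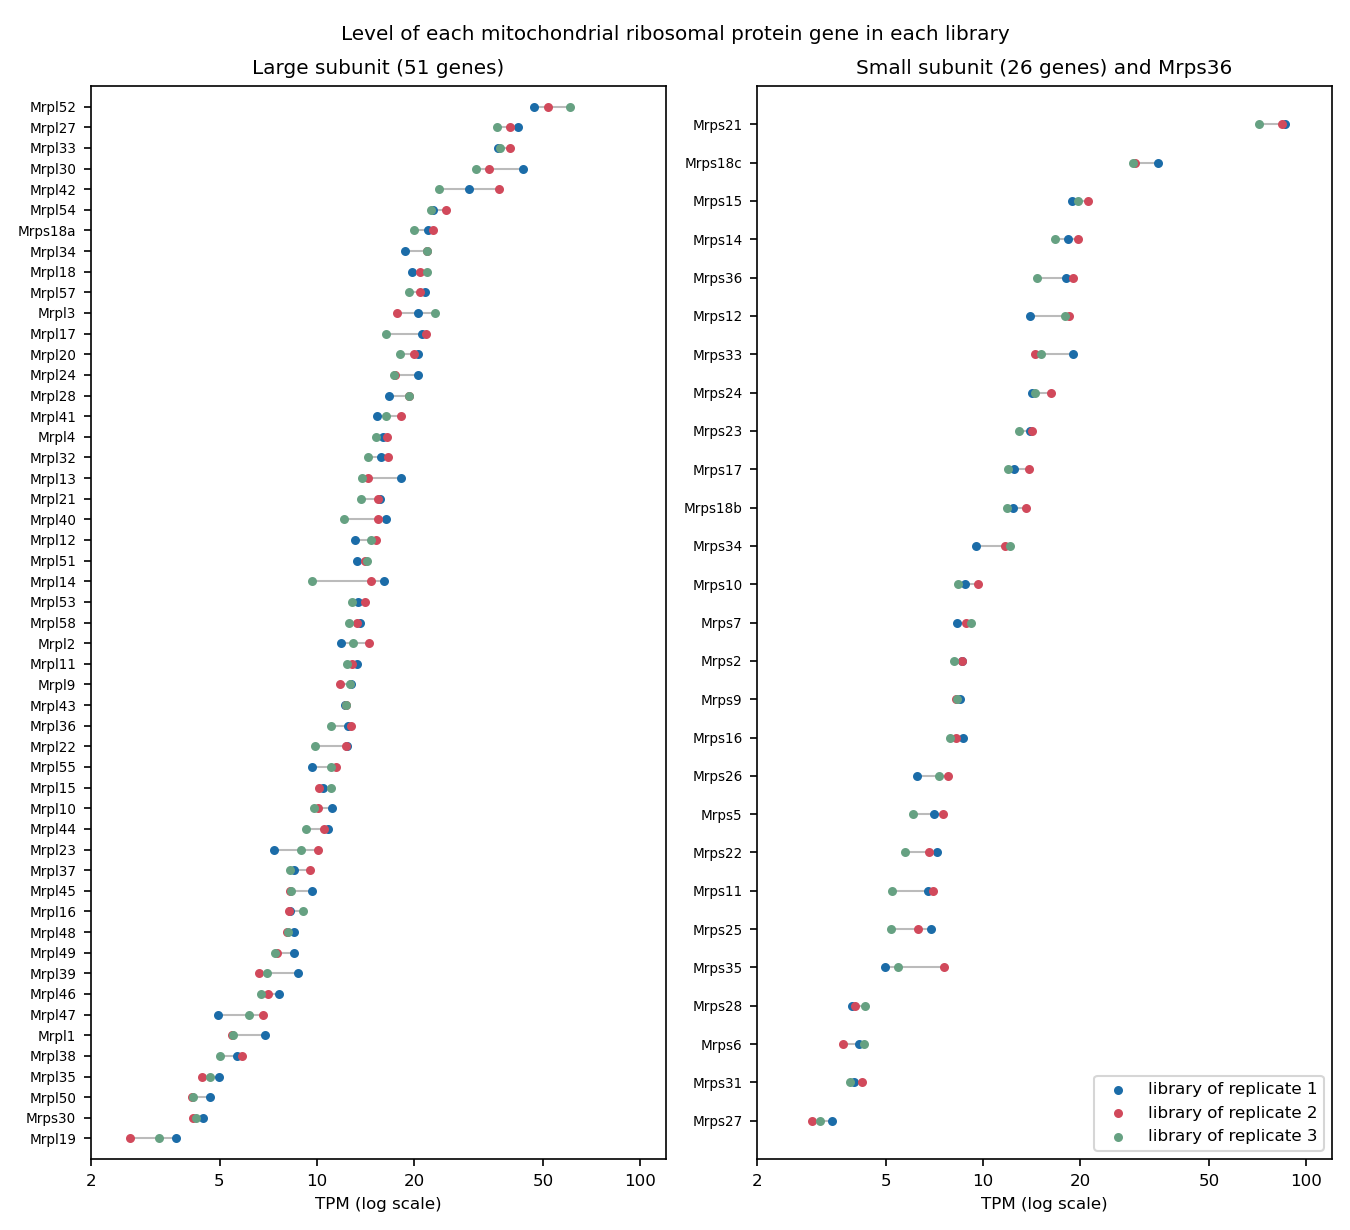
Level of each gene in each library, in TPM on a log scale, with 51 large-subunit genes on the left and 26 small-subunit genes with Mrps36 on the right, sorted by mean. Each dot is 1 library and the grey line joins the lowest and highest. Mrps21 and Mrpl52 stand at the top, and most genes lie between 5 and 20 TPM.

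Mrps21, a small protein of the small subunit with a bacterial counterpart, was the highest member at 85.7, 84.0 and 71.4 TPM. Mrpl52, specific to mitochondria, followed at 46.8, 51.9 and 60.8 TPM, below Mrps21 in every library. The next were Mrpl27 at 39.2 ± 2.8 TPM, Mrpl33 at 37.6 ± 1.7 TPM and Mrpl30 at 36.1 ± 6.4 TPM (SD, n = 3), whose libraries overlap. Mrps18c (31.2 ± 3.2 TPM), Mrpl42 (29.5, 36.7 and 23.9 TPM), Mrpl54 (23.5 ± 1.3 TPM), Mrps18a (21.6 ± 1.5 TPM) and Mrpl34 (20.8 ± 1.8 TPM) complete the highest 10. Along the whole order, 73 of the 77 neighbouring pairs overlapped in their library values, so single ranks are not separated by these libraries.

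At the other end, Mrps27, a pentatricopeptide-repeat protein of the small subunit (chr13:99344786-99415562, plus strand, mm10), was at 3.42, 2.96 and 3.12 TPM. Mrpl19, of the large subunit, was at 3.67, 2.65 and 3.24 TPM, a range that spans that of Mrps27, so the order of the lowest 2 is not resolved. Mrps31 (4.03 ± 0.18 TPM), Mrps6 (4.04 ± 0.31 TPM), Mrps28 (4.09 ± 0.20 TPM), Mrps30 (4.27 ± 0.15 TPM), Mrpl50 (4.30 ± 0.31 TPM) and Mrpl35 (4.69 ± 0.28 TPM) make up the rest of the lowest 8. The highest mean was 25.4 times the lowest.

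**Figure D2:**
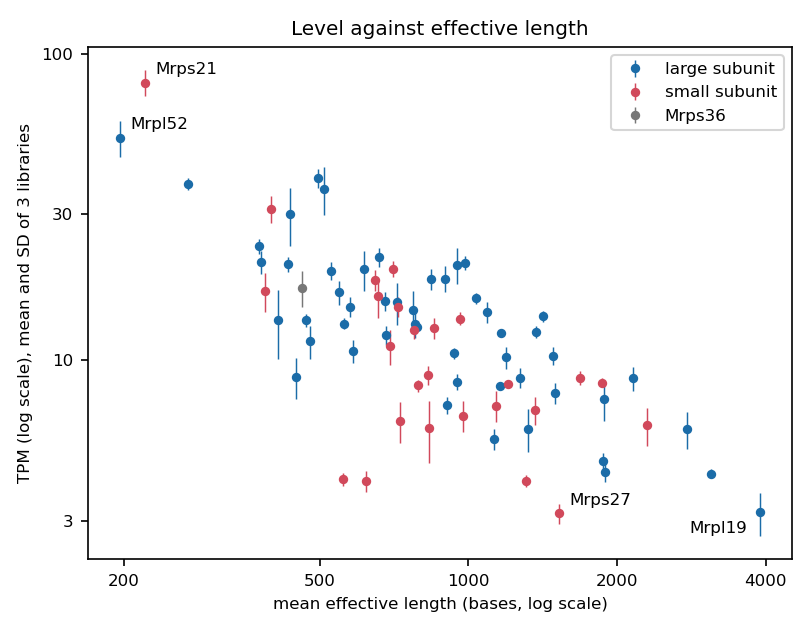
Mean TPM with SD over 3 libraries against mean effective length in bases, both on log scales, for the 78 genes. Levels are higher where the effective length is short, with Mrps21 and Mrpl52 at the upper left.

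Levels per length went with transcript length within the family. The effective length, which is the number of positions a fragment can start from, averaged 221 bases for Mrps21 and 197 bases for Mrpl52, against 1526 for Mrps27 and 3897 for Mrpl19. Across the 78 genes Spearman's rho of mean TPM and effective length was -0.69, and -0.63 in the second transcript tables, while expected counts gave 0.29. The 9089 expressed coding genes gave -0.19. These are descriptions over genes that share libraries, and TPM contains the length as its divisor. The median effective length was 810 bases for members and 2305 for expressed coding genes. The small genes Mrps28 (556 bases) and Mrps6 (619 bases) were low in spite of their length.

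The large subunit was at a median of 13.3 ± 0.79 TPM and the small subunit at 8.58 ± 0.20 TPM. In each library the difference in medians of log2(TPM + 1) was 0.57, 0.64 and 0.54 (0.58 ± 0.05, SD, n = 3), with the large subunit above. Genes with a bacterial counterpart were at 13.2 ± 0.86 TPM and those specific to mitochondria at 9.09 ± 0.68 TPM, a difference of 0.41, 0.53 and 0.54 on the same scale. Both differences were larger than their spread between libraries. That spread compares the same genes in each library and does not measure variation between genes. The ranges of genes overlap widely, from 3.19 to 53.2 TPM in the large and from 3.17 to 80.4 TPM in the small subunit. Effective length, with which TPM went across the family, was not taken into account in either difference. An exact sign-flip test over 3 libraries cannot go below p = 0.25, so neither was tested.

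The stalk of the large subunit, which recruits translation factors, had similar mean levels across its 3 genes. Mrpl12 was at 13.1, 15.2 and 14.7 TPM, Mrpl11 at 13.3, 12.8 and 12.4 TPM and Mrpl10, which anchors Mrpl12, at 11.2, 10.1 and 9.79 TPM. The 3 genes lay near the family median.

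Around the exit of the peptide tunnel, where new chains reach the inner membrane, the means of 8 genes ran from 5.96 to 19.8 TPM. Mrpl17 (19.8 ± 2.9 TPM) and Mrpl24 (18.4 ± 1.8 TPM) were the highest there, Mrpl22 was at 11.5 ± 1.4 TPM and Mrpl44 at 10.2 ± 0.83 TPM. Mrpl23, described below, was at 8.81 ± 1.4 TPM, Mrpl45, which contacts the membrane, at 8.74 ± 0.80 TPM and Mrpl39 at 7.47 ± 1.1 TPM. Mrpl47 was the lowest at 4.93, 6.79 and 6.17 TPM.

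Near the decoding site of the small subunit, Mrps12 stood above its neighbours at 14.0, 18.5 and 17.9 TPM. Mrps7 was at 8.77 ± 0.46 TPM, Mrps5 at 6.87 ± 0.74 TPM and Mrps11 at 6.33 ± 0.98 TPM, each below the lowest library of Mrps12. The S18 family has 3 paralogs in mammals, of which Mrps18b and Mrps18c belong to the small and Mrps18a to the large subunit. Mrps18c was at 34.9, 29.5 and 29.1 TPM, Mrps18a at 22.1, 22.9 and 19.9 TPM and Mrps18b at 12.4, 13.5 and 11.8 TPM, so the 3 did not overlap. Mrps36, assigned elsewhere by now, was at 18.1, 19.0 and 14.6 TPM.

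The 5 subunits with other names ranged from 2.61 to 27.1 TPM. Chchd1 was at 27.1 ± 0.88 TPM, Aurkaip1 at 22.7 ± 2.3 TPM, Dap3, the GTP-binding protein of the small subunit, at 10.4 ± 1.5 TPM, Ptcd3 at 4.22 ± 0.26 TPM and Gadd45gip1 at 2.61 ± 0.50 TPM. The mean of Gadd45gip1 was below the mean of every member, although in replicate 2 it exceeded Mrps27 and Mrpl19. The 24 assembly factors had a lower median, 2.95 ± 0.13 TPM, with 22 at 1 TPM or more in every library. Rbfa, which binds the maturing small subunit, was the highest at 16.0 ± 2.2 TPM, before Mpv17l2 (12.8 ± 0.34 TPM) and the helicase Dhx30 (12.5 ± 1.2 TPM), and the rRNA methyltransferase gene Mettl15 was the lowest at 0.363 ± 0.070 TPM. The 15 genes of mitochondrial translation and its mRNA partners had a median of 4.65 ± 0.30 TPM, all at 1 TPM or more. Slirp, an mRNA-binding partner of Lrpprc, was the highest at 50.8, 35.2 and 30.7 TPM, before the elongation factor gene Tufm (12.3 ± 0.34 TPM) and the membrane insertase gene Oxa1l (10.3 ± 0.88 TPM), and the methionyl-tRNA formyltransferase gene Mtfmt was the lowest at 1.80 ± 0.28 TPM.

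The cytosolic ribosomal protein genes, which build the other ribosome of the cell, were far more abundant. Their median was 174, 186 and 153 TPM, 13.8 times that of the mitochondrial family on average. The difference in medians of log2(TPM + 1), mitochondrial minus cytosolic, was -3.68 ± 0.10 (SD, n = 3). Together the 78 members held 0.114 ± 0.005% of TPM and 0.144 ± 0.013% of expected counts, and the cytosolic genes 1.59 ± 0.14% and 1.23 ± 0.18%. On the log2(TPM + 1) scale the SD among genes was 0.85 in the mitochondrial family and 1.74 in the cytosolic one, which includes genes near 0.

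Whether libraries differed was asked gene by gene with edgeR's likelihood ratio test at dispersion 0, which measures departure from counting noise and not from biological spread. It called 58 of 78 members at a Benjamini-Hochberg adjusted p under 0.05, against 71.1% of 12372 genes tested, so the share of members (74.4%) was near the background. Among the related genes it called 2 of the 5 subunits with other names, 12 of 24 assembly factors and 6 of 15 translation genes. Without replicate 2 it called 30 members (38.5%) against 53.4% of all genes tested, without replicate 1 it called 42 against 52.3%, and without replicate 3 it called 39 against 51.6%. The median over members of the SD of log2(CPM + 0.5) was 0.13, against 0.14 over the 9089 expressed coding genes and 0.16 over all genes tested. The per-gene biological coefficient of variation of edgeR had a median of 0.146 for members, 0.143 for expressed coding genes and 0.160 for all genes tested. Its common value was 0.190. By this measure members were thus no steadier than expressed coding genes.

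The direction of the differences was shared. On the TMM scale replicate 2 was the highest library for 61 of 78 members, against 35.1% of all genes tested. The median deviation of members from their own mean, in log2 units, was -0.07, 0.13 and -0.05 in replicates 1, 2 and 3, and for all genes tested -0.01, 0.01 and 0.00. Both subunits took part, with 39 of 51 large-subunit and 21 of 26 small-subunit genes highest in replicate 2. So did Gadd45gip1, Aurkaip1, Chchd1, Dap3 and Ptcd3, all highest in replicate 2 on this scale, whereas 9 of 24 assembly factors and 6 of 15 translation genes were.

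**Figure D3:**
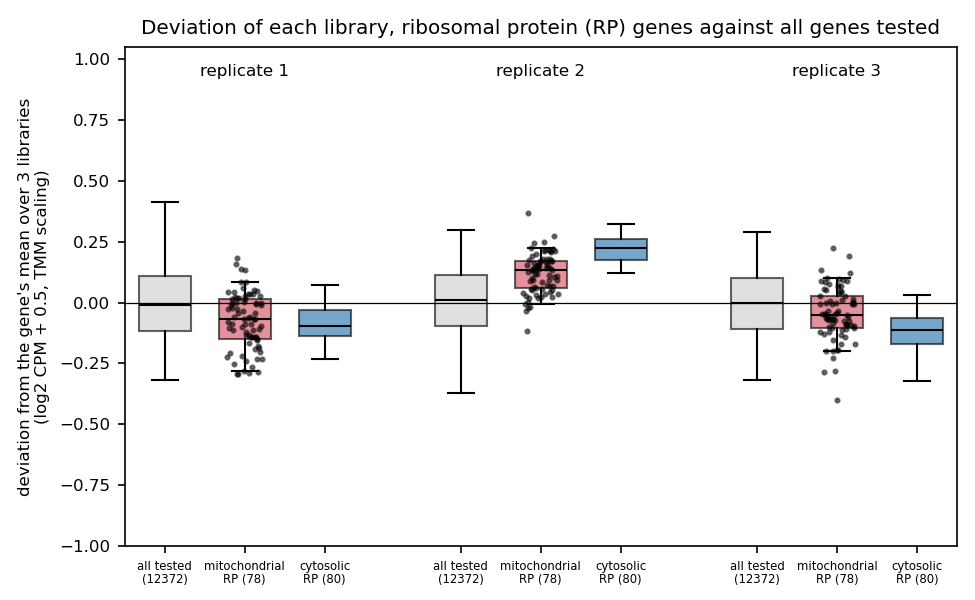
Deviation of each library from a gene's mean over 3 libraries, in log2 units after TMM scaling, for all 12372 genes tested (grey), the 78 mitochondrial ribosomal protein genes (red, with a dot per gene) and 80 cytosolic ribosomal protein genes (blue). Boxes span the quartiles with the median as a line, and whiskers the 5th to 95th percentiles. Both ribosomal sets lie above 0 in replicate 2.

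The shift was not confined to the mitochondrial ribosome. Of the 80 cytosolic ribosomal protein genes tested, 78 were highest in replicate 2, with median deviations of -0.09, 0.22 and -0.11. Replicate 2 was the highest library for 52.7% of 2007 tested genes under 1000 bases of effective length and for 31.7% of the longer 10365. Among members it was so for 41 of the 51 below that length and for 20 of the 27 above. On the same log2 TMM scale several other RNAs were lowest in replicate 2. The nuclear RNA Malat1 deviated by 0.69, -1.50 and 0.81 from its mean in replicates 1, 2 and 3, Neat1 by 0.33, -1.12 and 0.79 and Xist by 2.20, -2.18 and -0.02. The mitochondrial rRNA genes, in libraries depleted of rRNA, deviated by 0.69, -0.77 and 0.08 (mt-Rnr1) and by 0.52, -0.77 and 0.25 (mt-Rnr2). Xist also separated replicates 1 and 3, which Malat1 did not. Their part in the shift was not tested.

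The scale matters for this count. With DESeq2 size factors 58 members were highest in replicate 2 (33.0% of all genes tested), with TPM rescaled over protein-coding genes 59 (34.0%) and with the second tables rescaled alike 55 (30.4%). With TPM as deposited the count was 34, equal to that of replicate 1, against 18.9% of all genes tested.

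The largest spread was that of Mrpl14, a large-subunit protein with a bacterial counterpart, at 330.0, 480.0 and 334.0 expected counts, or 0.18, 0.21 and -0.40 from its mean log2(CPM + 0.5). Its SD was 0.35 log2 units and its adjusted p 8.5e-11 in edgeR's test against counting noise. Replicate 3 alone was low. Mrpl42 differed instead by a high replicate 2, at 4.41, 4.86 and 4.21 in log2(CPM + 0.5), with an SD of 0.33 and an adjusted p of 2.0e-25. Mrps11 (SD 0.27), Mrpl52 (0.27) and Mrps26 (0.26) followed, and Mrpl52 rose above its mean in replicate 3, by 0.23, where the median member lay 0.05 below its own. The most even genes were Mrps27, at 3.15, 3.11 and 3.13, with an SD of 0.02 and an adjusted p of 0.94, Mrpl15 (0.02), Mrps30 (0.04), Mrpl50 (0.04) and Mrpl45 (0.06). None of these 5 passed edgeR's test, with adjusted p between 0.14 and 0.94, and none was under 0.05 unadjusted. Genes at both ends were picked by their spread in the same libraries, so these results of the test are no separate support.

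The transcripts behind these levels were not always annotated as coding. In the median member 97.7% of TPM was in transcripts typed protein_coding, close to the 97.5% of expressed coding genes, and 53 members exceeded 90% in every library. But 13 of 78 were under 50% in every library, against 3.94% of the 9089 expressed coding genes. Transcripts of another type are annotated for 68 members and for 82.8% of the 9089 genes. Counting only such genes, the shares under 50% were 19.1% and 4.76%. The second tables also gave 13 members, 12 of them the same, and Mrps25, Mrps26, Mrps14, Mrps16 and Mrps35 of the small subunit were among the 13 together with 8 large-subunit genes.

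**Figure D4:**
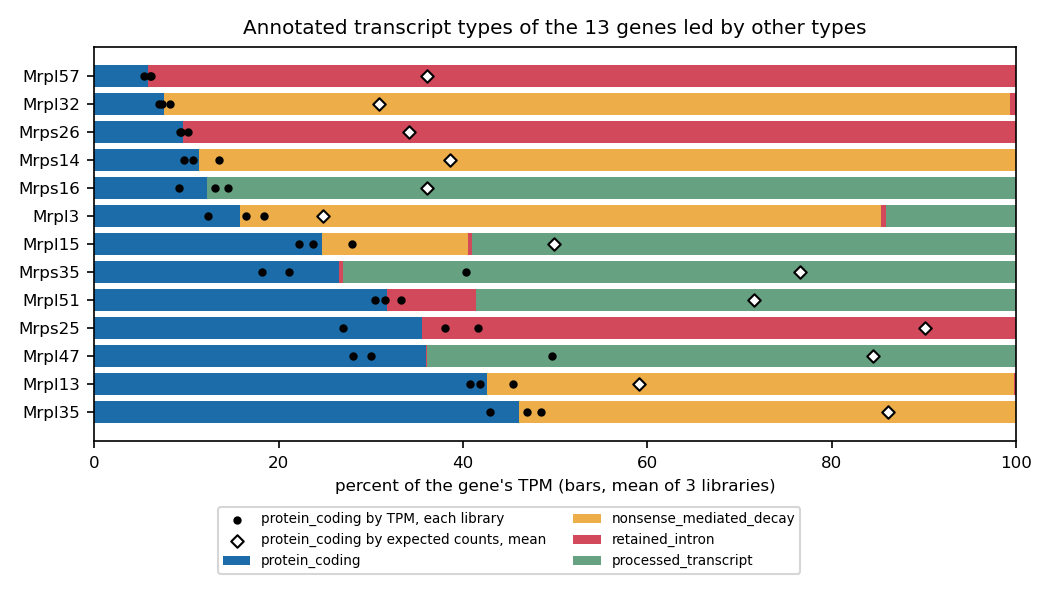
Share of each gene's TPM in 4 annotated transcript types (bars, mean of 3 libraries) for the 13 genes under 50% protein_coding in every library. Black dots give the protein_coding share in each library and white diamonds its share of expected counts. The diamonds lie to the right of the dots in all 13 genes.

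Mrpl57 was the extreme: its protein_coding transcript held 6.02%, 6.19% and 5.35% of TPM, and a transcript typed retained_intron the other 94.1 ± 0.44%. Mrpl32, whose protein is matured by a mitochondrial protease before assembly, had 8.24%, 7.32% and 6.97% coding, with 80.9 ± 2.9% in a transcript typed nonsense_mediated_decay. Mrps26 had 9.27%, 9.42% and 10.1% coding beside a retained_intron transcript. Mrps14 had 9.72%, 10.7% and 13.5% coding beside a nonsense_mediated_decay transcript, Mrps16 13.1%, 14.5% and 9.20% beside a processed_transcript, and Mrpl3 18.4%, 16.4% and 12.4%, beside several nonsense_mediated_decay transcripts. Nearest to the 50% limit were Mrpl35 inside it, at a mean of 46.1%, and Mrps5 and Mrps11 outside it, at 53.4% and 56.3%. Of the 13 leading transcripts, 5 were typed nonsense_mediated_decay, 5 processed_transcript and 3 retained_intron.

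The leading transcript was shorter than the principal coding one in all 13 genes, where principal means tagged so in the annotation or, failing that, with the longest coding sequence. It was shorter than the most abundant protein_coding transcript in 12, the exception being Mrpl3 (1394 against 562 bases). Lengths were 519 against 2877 bases for Mrpl57, 658 against 3013 for Mrpl32 and 565 against 6073 for Mrps25. The principal coding transcript of Mrpl57 has 2474 bases after its stop codon, that of Mrps25 5500 and that of Mrpl13, the shortest such stretch, 225. TPM divides by length, and shares of reads were higher. Coding transcripts held 37.2%, 37.3% and 33.7% of the expected counts of Mrpl57, and 86.6%, 91.3% and 92.4% of those of Mrps25. By expected counts 6 of the 13 genes stayed under 50% in every library, namely Mrpl57, Mrpl32, Mrps26, Mrps14, Mrps16 and Mrpl3, and no other member did, against 2.11% of expressed coding genes. The retained_intron transcript of Mrpl57 consists of 1 exon that contains the whole coding sequence of 306 bases, so its type does not say that it lacks it. The other 12 leading transcripts did not contain an unbroken coding sequence of an annotated protein_coding transcript, although those of Mrps14 and Mrps26 include all of its bases and those of Mrpl32 and Mrps16 96.6% and 97.5%. The share of coding bases included was lowest in that of Mrps35, at 35.1%.

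**Figure D5:**
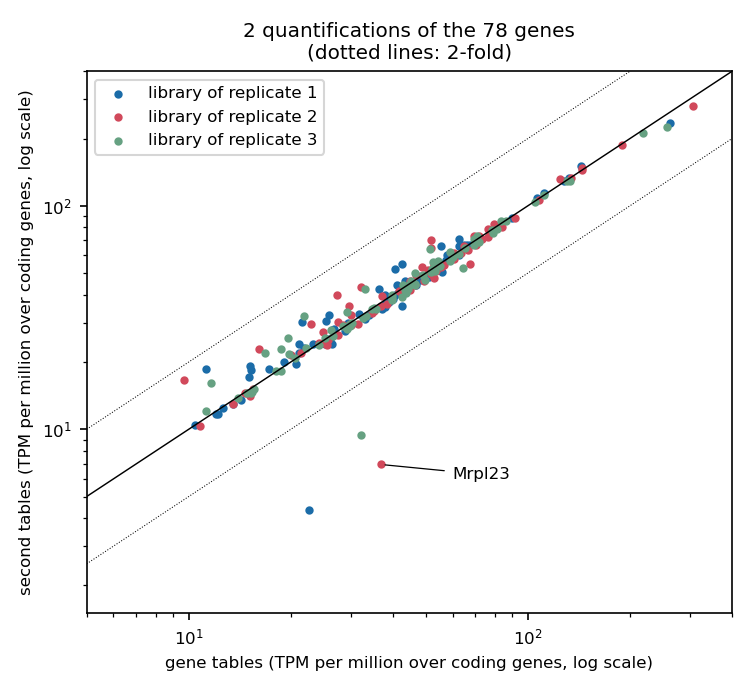
TPM of each gene in the gene tables (horizontal) and in the second transcript tables summed per gene (vertical), both rescaled to the same sum over protein-coding genes, on log scales, with 1 dot per library. The solid line marks equality and the dotted lines 2-fold. Only Mrpl23 lies beyond the 2-fold lines in all 3 libraries.

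The 2 quantifications gave nearly the same family, with Spearman's rho of 0.98 over 78 genes. After rescaling to the same sum over protein-coding genes, 1 member was 2-fold or more apart in all 3 libraries, always in 1 direction, against 2.47% of 10846 coding genes at a mean of 1 TPM or more in either. That member was Mrpl23, of the tunnel exit (chr7:142532686-142540747, plus strand, mm10), with 22.6, 36.9 and 32.2 rescaled TPM in the gene tables and 4.36, 6.96 and 9.43 in the second tables, a mean ratio of 0.220. As deposited, its levels were 7.39, 10.1 and 8.95 TPM and 0.715, 1.06 and 1.14 TPM. On the rescaled scale Mrpl19 (a ratio of 1.58, second over first), Mrps5 (1.45), Mrpl35 (1.31) and Mrpl51 (1.30) came next, all within 2-fold.

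Mrpl23 has a processed pseudogene, Mrpl23-ps1 (chr2:74591330-74591909, minus strand, mm10), and the annotated sequences of both are shown at the start of the coding sequence because they cannot be told apart there.
Mrpl23: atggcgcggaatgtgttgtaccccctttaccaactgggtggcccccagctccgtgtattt
Mrpl23-ps1: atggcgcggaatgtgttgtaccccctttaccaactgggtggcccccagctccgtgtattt
All letters are in lower case since none of the 60 differ. In the best local alignment the 692 bases of the Mrpl23 transcript and the 580 bases of the pseudogene were identical over 540 bases with 0 mismatches, which include all 438 bases of the coding sequence. On the rescaled scale Mrpl23-ps1 was at 28.9, 43.1 and 30.7 TPM in the gene tables and at 49.3, 77.4 and 57.4 TPM in the second tables, higher there in every library. The sum of both genes was 51.5, 80.0 and 62.9 rescaled TPM in the first and 53.6, 84.3 and 66.8 in the second. Mrpl23 thus held 47.1 ± 3.8% of their sum in the first and 10.2 ± 3.4% in the second. The level of Mrpl23 alone is therefore uncertain, and in the gene tables the deposited posterior SD of its count was 10.6%, 7.25% and 6.91% of the count. For 75 of the 78 members it was under 1% in every library, the others being Mrps25 and Mrpl47. The pseudogenes Mrpl48-ps, Mrps36-ps1, Mrps36-ps2 and Mrps36-ps3 were at a mean of 0.093 TPM or less.

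Many members start close to the start of a gene on the opposite strand. The 2 starts may lie apart, back to back, or the genes may overlap there, and both kinds are counted. In the GENCODE M21 annotation (mm10) 33 of 78 members had the start of a protein-coding gene on the opposite strand within 1000 bases, 42.3% against 18.7% of the 9089 expressed coding genes. Mrpl46 and Mrps11, 1 gene of each subunit, are such a pair on chromosome 7, and their exons share 173 bases. Mrpl46 was at 7.63, 7.06 and 6.72 TPM and Mrps11 at 6.77, 7.01 and 5.21 TPM. Examples of partners follow, with their levels. Mrps12 starts 172 bases from Sars2, the mitochondrial seryl-tRNA synthetase gene (2.02 ± 0.03 TPM), Mrps27 81 bases from Ptcd2 (10.8 ± 0.91 TPM) and Mrpl47 faces Ndufb5, a subunit gene of respiratory complex I (25.5 ± 2.8 TPM). Psma2, a proteasome subunit gene 75 bases from Mrpl32, was at 31.3 ± 2.1 TPM. Mrpl36 starts 29 bases from Ndufs6, another complex I gene (33.9 ± 4.1 TPM), and Mrpl49 59 bases from Fau, which encodes a cytosolic ribosomal protein (412.1 ± 25.1 TPM). Some partners of high members were low: Helq, 29 bases from Mrps18c, was at 0.933 ± 0.11 TPM, Eme1 beside Mrpl27 at 0.287 ± 0.055 TPM and Ska3, 49 bases from Mrpl57, at 0.213 ± 0.051 TPM. Apba3, 26 bases from Mrpl54, was at 5.96 ± 1.2 TPM and Mitd1, 66 bases from Mrpl30, at 13.7 ± 4.4 TPM. Of the pairs named here, Mrpl46 with Mrps11, Mrpl47 with Ndufb5, Mrpl36 with Ndufs6 and Mrpl27 with Eme1 overlap at their starts. The others lie apart.

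Overlap with other genes limits some values, and no source used here gives the strand setting of the counting. Exon bases were shared with an opposite-strand gene in 28 members and with a same-strand gene in 8. Neither count was made over expressed coding genes, so neither is given as a trait of the family. The widest overlaps with an opposite-strand gene at 1 TPM or more were those of Mrps25, with 69.8% of its exon bases in Nr2c2 (4.02 TPM), Mrps34, with 63.4% in Mapk8ip3 (5.82 TPM), and Mrpl19, with 36.0% in Gcfc2 (1.13 TPM). Reads of overlapping genes on opposite strands cannot be told apart in such stretches without strand. For genes on the same strand, strand does not help. Mrpl53 shared 88.0% of its exon bases with Gm42688 (0.43 TPM) on its own strand. In the same way Mrps34 shared 37.0% with Nme3 (2.96 TPM) and Mrps24 15.4% with Urgcp (4.78 TPM).

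The proteins share a feature that the symbol rule did not use. Translated from the GENCODE transcripts, they were short, with a median of 194 residues and a range from 65 (Mrpl33) to 442 (Mrps30), against 442 in expressed coding genes. Imported mitochondrial proteins usually start with a targeting stretch rich in basic and poor in acidic residues. In the first 20 residues members had a mean of 2.91 lysines or arginines and 0.308 aspartates or glutamates, and expressed coding genes 2.26 and 2.12. Cytosolic ribosomal proteins had 4.82 and 1.43, so they held more basic residues there than members, and more acidic ones. No acidic residue was present there in 57 of 78 members (73.1%), in 21.4% of 9068 expressed coding genes and in 40.2% of cytosolic ribosomal proteins. All members but Mrpl36, with 1 of each, had more basic than acidic residues in that stretch, as did 44.8% of expressed coding genes and 82.9% of cytosolic ribosomal proteins. Mrps21, the most abundant transcript of the family, had 2 acidic residues there beside 3 basic ones.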

How the data were processed

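Cytosolic RNA of 1 group of 3 libraries was analysed. The authors' gene and transcript tables, made from transcriptome alignments on mm10 with GENCODE M21 per the deposited text, give expected counts and TPM, with the column layout of RSEM, and the percent of each gene's TPM per transcript. Their second transcript tables, with the column layout of kallisto, give estimated counts and TPM, per the file headers. Programs, versions and the strand setting: not given in the sources used here. Posterior SDs and effective lengths are as deposited.

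All 55536 gene identifiers matched GENCODE M21; spike-ins (96) and tRNAs (26248) were left out. Rounded expected counts of all genes entered edgeR 4.0.16 (R 4.3.3) with TMM, filterByExpr and a likelihood ratio test at dispersion 0, Benjamini-Hochberg adjusted over 12372 genes and tested on simulated data. DESeq2 1.42.0 was an alternative. Second tables were summed per gene. Sequences came from GENCODE transcripts and RefSeq promoters, aligned with Biopython 1.88. Other values are descriptions, mean ± SD over 3 libraries.

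Members and lists were chosen with earlier results of these data known. Named were the 10 highest and 8 lowest members, the 5 largest and 5 smallest spreads, the 5 largest ratios between quantifications, the 6 lowest coding shares, the stalk, tunnel-exit, decoding-site and S18 genes, Mrps36, other subunits, and the 3 highest and the lowest assembly and translation genes. Other genes were named after their values were seen.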

Additional observations from a re-analysis of the deposited data

How the results depend on the processing

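The count of members highest in replicate 2, its alternatives, and the share of coding transcripts by expected counts were added after seeing the data. No paired analysis was possible because the series holds 1 group. The median level was 6.04 TPM in the second tables and 42.6 TPM after rescaling over protein-coding genes, against 12.4. The large-minus-small difference was 0.42 in the second tables and 0.34 with means in place of medians, the bacterial-counterpart-minus-mitochondria-specific difference 0.39 and 0.35, and the mitochondrial-minus-cytosolic difference -3.47 and -3.38, so each kept its sign. The subunit by symbol letter gave 0.57. At 10 TPM the count was 42. Counting-noise calls ranged from 57 to 64 members over normalizations, filters, DESeq2 and the second tables, and from 30 to 42 leaving out a library. Without rescaling, Mrps12 joined Mrpl23 as 2-fold apart, making 2. The median coding share, averaged over libraries, was 96.1% in the second tables against 98.1%. Members under 50% coding numbered 6 by expected counts, against 13. Members highest in replicate 2 numbered 34 with TPM as deposited, against 61. The move to 42.6 TPM follows from the rescaling itself, and that from 13 to 6 genes from TPM dividing by length. The cause of the other moves was not tested. Leaving out each library in turn gave 132 comparisons of the counting-noise calls of named members. Of these, 33 lost a call, 2 gained 1 and 97 kept the result, called or not. A call could be lost only where the main test had made it. All 44 mean TPM of named members moved by over 1 SD in the second tables as deposited. They were compared without rescaling, and the family median there was 6.04 against 12.4 TPM. This count therefore does not separate single genes from the scale. Only the differences between gene sets could reverse, and they kept their sign. Levels, counts, shares and calls have no sign to reverse. With 108.0 to 1798 counts per member and library, small differences between neighbouring ranks are not detectable.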
